A study of Homo sapiens with 9 samples.

Results

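ASS1 and 9 further genes of arginine and polyamine metabolism were followed in MEC1 cells, a line established from a chronic lymphocytic leukaemia (CLL), grown in flat culture or inside printed hydrogel scaffolds. The 10 genes (ASS1, ASL, ARG2, OAT, ODC1, SRM, SMS, AMD1, OAZ1 and SAT1) were picked by name out of the 59050 gene symbols measured. ASS1 entered the selection because of its fall at day 7, so its levels are given as a description without a test. The other 9 genes were added for their place in the pathway. Earlier results of these data were known when these genes and the gene lists used below were chosen. RNA was sequenced from 9 samples: 3 of cells cultured in 2D, 3 of bioprinted 3D scaffolds kept for 7 days (3D_7d) and 3 of scaffolds kept for 14 days (3D_14d), called day 7 and day 14 here. Printing in hydrogel, crosslinking with CaCl2 and a wash in a salt solution were part of making the scaffolds, so they separate both scaffold groups from 2D. No other treatment is stated. The published methods list several days of RNA extraction for 2D cultures in general, without saying which of them the sequenced 2D samples had. RNA of the scaffolds was taken up in TRIzol, treated with DNase and passed over a column, whereas RNA of the 2D cells was prepared without TRIzol by a kit with DNase in its washes, so extraction and culture form cannot be told apart in either comparison with 2D. All samples come from 1 cell line, and nothing states that replicates were separate cultures or scaffolds. The p-values therefore measure the spread between these samples, which may be technical.

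The libraries held 57152440 to 85968686 counts in 2D, 54810673 to 58272630 at day 7 and 54662799 to 61246772 at day 14. Ribosomal protein genes held 4.10% to 4.82% of counts in 2D, 1.66% to 1.82% at day 7 and 1.88% to 3.27% at day 14. Mitochondrial genes held 2.30% to 2.83%, 1.44% to 1.64% and 1.62% to 2.82%, and immunoglobulin genes 1.24% to 1.31%, 4.46% to 5.23% and 4.99% to 7.13%. Replicate 1 of day 14 stood apart from its group: the SD over genes of its log2 difference from the other day 14 libraries was 0.83 and 0.77, against 0.59 between those 2 libraries, 0.32 to 0.40 within 2D and 0.48 to 0.57 within day 7. B cell identity was checked with 8 markers. Of these, 7 were expressed above the filter, with MS4A1 or CD79A the most abundant in every library, while CD5, a defining surface protein of CLL, reached at most 0.669 CPM (counts relative to the library total). The 8 markers summed to 2642 to 2658 CPM in 2D, 2883 to 3646 CPM at day 7 and 3622 to 3992 CPM at day 14. Among 10 markers of other cells, of which 3 passed the filter, GNLY, a gene of cytotoxic lymphocytes, was the most abundant in all libraries, at 11.5 to 14.5 CPM in 2D, 88.5 to 126 CPM at day 7 and 209 to 408 CPM at day 14. NKG7, also a gene of cytotoxic lymphocytes, was lower in the scaffold groups than in 2D, with means of 1.66, 0.424 and 1.08 CPM, as was the matrix gene COL1A1 with 6.95, 3.01 and 3.20 CPM, both named after their values were seen. The 9 markers other than GNLY summed to 9.80 to 10.2 CPM in 2D, 2.60 to 6.30 CPM at day 7 and 3.88 to 7.11 CPM at day 14. The T cell gene CD3D and the monocyte gene LYZ were at 0 in all 2D and all day 14 libraries. In day 7 replicate 1, however, none of the 10 markers was at 0. The T cell gene CD3E exceeded 1 CPM in 1 library of 2D. Whether these differences in markers or in the shares of counts had a part in the results was not tested.

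Argininosuccinate synthase (ASS1) joins citrulline and aspartate, and argininosuccinate lyase (ASL) splits the product into arginine and fumarate. Arginases turn arginine into ornithine, which ornithine decarboxylase (ODC1) commits to putrescine, while spermidine synthase and spermine synthase build the longer polyamines with groups supplied by AMD1. Tumours that keep ASS1 low depend on arginine from outside, and proliferating cells are known for high ODC1 activity.

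ASS1 lies on the plus strand of chromosome 9 (chr9:130444929-130501274, GRCh38) and shared no exonic base with another annotated gene. Its level in 2D was 96.2, 96.3 and 93.0 CPM on library sizes scaled by the trimmed mean of M-values (TMM). At day 7 the 3 libraries held 1.59, 2.72 and 2.00 CPM, and at day 14 they held 30.2, 45.8 and 36.8 CPM. All 2D libraries were high, all day 7 libraries were below 3 CPM, day 14 lay between, and no 2 groups overlapped. The counts behind these levels were 5833, 8921 and 7073 in 2D, 92, 149 and 105 at day 7, and 1629, 2409 and 2048 at day 14. On the log2 scale ASS1 was -5.50 (SE 0.24) at day 7 against 2D, a level 45.2-fold lower, and -1.34 (SE 0.20) at day 14 against 2D. From day 7 to day 14 it differed by 4.16 (SE 0.23) on the log2 scale. The scaffold groups share their 2D samples, and the day 7 samples that led to the choice of ASS1 enter the last difference as well. In bulk samples fewer cells with the transcript and less transcript per cell cannot be told apart.

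The annotation holds 11 pseudogenes of ASS1, of which 10 had counts. Their summed counts were 78, 71 and 110 in 2D, 102, 54 and 80 at day 7, and 128, 39 and 116 at day 14. Pseudogene counts thus amounted to 0.796% to 1.56% of the ASS1 counts in 2D, 36.2% to 111% at day 7 and 1.62% to 7.86% at day 14. How reads matching several places were assigned is not given in the sources used here, so the lowest ASS1 levels are uncertain by reads that may belong to a copy. Pseudogenes of ASL, SRM and AMD1 reached at most 1.19% of the counts of their gene.

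ASL, which acts directly after ASS1, was measured at 52.5, 52.5 and 51.9 CPM in 2D, 48.7, 43.0 and 41.9 CPM at day 7, and 43.7, 48.8 and 35.3 CPM at day 14. All scaffold libraries lay below all 2D libraries, and the day 7 and day 14 values overlapped. Differences were tested by the quasi-likelihood test of edgeR over 13463 genes, with p-values adjusted by Benjamini-Hochberg and called at 0.05. ASL did not pass the threshold, with log2 fold changes of -0.23 (adjusted p = 0.234) at day 7 and -0.30 (adjusted p = 0.146) at day 14 against 2D. With libraries scaled by total counts alone it passed in both comparisons, at -0.39 (adjusted p = 0.0471) and -0.51 (adjusted p = 0.0175). ASL shares 24.3% of its exonic bases with AC068533.4, and reads there may be lost or shared. Within each library, the level of ASS1 per exon length relative to that of ASL averaged 2.04 ± 0.0251 (SD, n = 3) in 2D, dropped to 0.0536 ± 0.0171 at day 7, and was 0.998 ± 0.203 at day 14. This ratio and the later ones were chosen after the values were seen and have no test.

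ARG2, the mitochondrial arginase, was low in all libraries, with 3.15, 3.13 and 2.99 CPM in 2D, 1.51, 0.95 and 0.97 CPM at day 7, and 2.35, 1.88 and 1.31 CPM at day 14. The 2D libraries were the highest, and the scaffold groups overlapped with each other. On the log2 scale ARG2 was -1.43 (SE 0.35) at day 7 against 2D. It exceeded 1 CPM in all 3 libraries of 2D and of day 14 and in 1 of 3 at day 7. It thus passed the filter through the groups where it was high, so its day 7 value is given without a test. At day 14 against 2D the value of -0.74 did not pass (adjusted p = 0.113), whereas with total counts alone it was -0.96 (adjusted p = 0.0396). ARG2 shares 47.3% of its exonic bases with VTI1B. OAT, which interconverts ornithine and the precursor of proline and glutamate, was at 60.8, 62.2 and 63.9 CPM in 2D, 54.8, 76.8 and 82.4 CPM at day 7, and 43.8, 53.4 and 49.4 CPM at day 14. Day 14 lay below both other groups, while the day 7 libraries fell on both sides of 2D. OAT fell by 0.55 (SE 0.17, adjusted p = 0.0271) from day 7 to day 14. The call was lost without 2D replicate 2 (-0.54, adjusted p = 0.0511), day 7 replicate 2 (-0.48, adjusted p = 0.109), day 7 replicate 3 (-0.41, adjusted p = 0.136) or day 14 replicate 1 (-0.46, adjusted p = 0.0526), and in a fit of the 6 samples alone (adjusted p = 0.078). Against 2D, OAT had log2 fold changes of 0.20 at day 7 and -0.35 at day 14, neither past the threshold; the latter passed with total counts alone (-0.55, adjusted p = 0.025) and without day 7 replicate 1 (-0.37, adjusted p = 0.043).

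**Figure D1:**
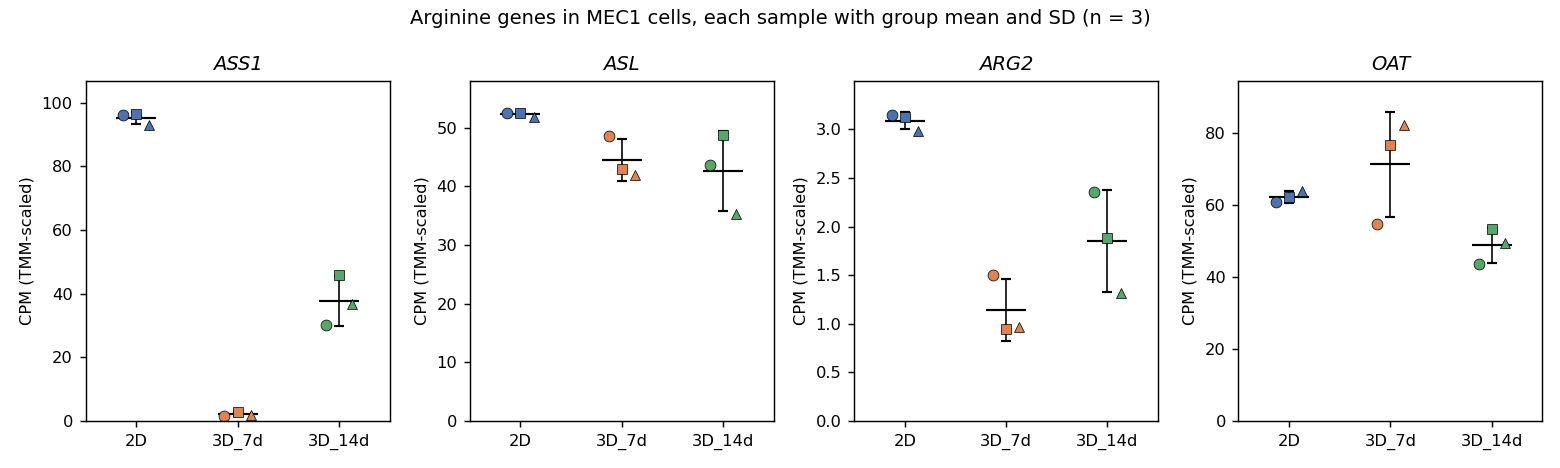
Level of ASS1, ASL, ARG2 and OAT (CPM on TMM-scaled library sizes, linear axis from 0) in each of the 9 samples; circles, squares and triangles are replicates 1, 2 and 3, and the black line and bars are the group mean and SD (n = 3). ASS1 separates the 3 groups, from 93.0 to 96.3 CPM in 2D to 1.59 to 2.72 CPM at day 7 and 30.2 to 45.8 CPM at day 14, whereas ASL stays between 35.3 and 52.5 CPM.

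ODC1, the first and rate-limiting enzyme of polyamine synthesis, held 291, 298 and 255 CPM in 2D, 533, 456 and 556 CPM at day 7, and 256, 362 and 309.7 CPM at day 14. All day 7 libraries were above all others, and 2D and day 14 overlapped. ODC1 rose by 0.87 on the log2 scale (SE 0.16, adjusted p = 0.000825) at day 7 against 2D and fell by 0.74 (SE 0.16, adjusted p = 0.00502) from day 7 to day 14, and both calls held in all 17 refits with another setting or without a library. At day 14 against 2D the difference was 0.14 (adjusted p = 0.523), and with total counts alone it was -0.06.

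OAZ1 encodes antizyme, which binds ODC1 protein and directs it to degradation. Its level was 2160.4, 1943 and 1739.8 CPM in 2D, 1165, 1214 and 1288 CPM at day 7, and 3044, 2103 and 1723 CPM at day 14. Day 7 was below every other library, and day 14 spread around the 2D values with replicate 1 the highest of all. OAZ1 fell by 0.67 (SE 0.19, adjusted p = 0.0122) at day 7 against 2D and rose by 0.91 (SE 0.19, adjusted p = 0.00471) from day 7 to day 14, and no refit lost either call. The day 14 difference from 2D was 0.23 (adjusted p = 0.356) and became -0.02 without day 14 replicate 1. A share of 19.2% of its exonic bases overlaps AC005258.1. Per exon length, ODC1 relative to OAZ1 averaged 0.0598 ± 0.00394 (SD, n = 3) in 2D, reached 0.174 ± 0.0172 at day 7 and came to 0.060 ± 0.022 at day 14. The day 7 ratios, 0.155 to 0.189, lay above all 6 others, which ran from 0.0346 to 0.0742.

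SAT1, the acetyltransferase that marks spermidine and spermine for breakdown and export, was at 263, 259.6 and 251 CPM in 2D, 271, 264 and 260.1 CPM at day 7, and 899.9, 597 and 549 CPM at day 14. The 2D and day 7 libraries overlapped within a narrow range, and all 3 day 14 libraries were above it. SAT1 rose by 1.40 on the log2 scale (SE 0.18, adjusted p = 0.000108) at day 14 against 2D and by 1.36 (SE 0.18, adjusted p = 0.000329) from day 7 to day 14. Both calls held in the 17 refits, including that without day 14 replicate 1. At day 7 against 2D the value was 0.04 (adjusted p = 0.867), and its sign turned with total counts alone (-0.11). SAT1 per ODC1 within a library, per exon length, averaged 1.52 ± 0.0963 (SD, n = 3) in 2D, 0.857 ± 0.0926 at day 7 and 3.82 ± 1.73 at day 14. Replicate 1 of day 14 reached 5.82 and the others 2.72 and 2.93.

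AMD1, which makes the aminopropyl donor, was measured at 70.2, 78.1 and 73.8 CPM in 2D, 57.0, 52.9 and 47.4 CPM at day 7, and 33.6, 34.6 and 47.3 CPM at day 14. The groups descended in that order, with day 14 replicate 3 just under the lowest day 7 library. AMD1 fell by 0.94 (SE 0.16, adjusted p = 0.000826) at day 14 against 2D, in all 17 refits as well, and by 0.50 (SE 0.16, adjusted p = 0.0241) at day 7. The day 7 call was lost without 2D replicate 2 (-0.51, adjusted p = 0.064), day 7 replicate 2 (-0.54, adjusted p = 0.0512) or day 7 replicate 3 (-0.47, adjusted p = 0.0731), and without a filter on low counts (adjusted p = 0.0855). Between the scaffold groups the value was -0.45 (adjusted p = 0.0556), and it passed without day 14 replicate 3 (-0.62, adjusted p = 0.0106) and by the Wald test of DESeq2 (-0.43, adjusted p = 0.0376).

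SRM, spermidine synthase, was at 79.5, 68.4 and 43.3 CPM in 2D, 129.9, 82.5 and 86.9 CPM at day 7, and 78.4, 73.8 and 89.2 CPM at day 14. Its rise of 0.65 (SE 0.23, adjusted p = 0.0344) at day 7 rested on single libraries. It was lost without 2D replicate 2 (0.65, adjusted p = 0.0822), 2D replicate 3 (0.38, adjusted p = 0.189), day 7 replicate 1 (0.39, adjusted p = 0.197) or day 7 replicate 3 (0.69, adjusted p = 0.0564), and with total counts alone (0.50, adjusted p = 0.107). SMS, spermine synthase, was at 157, 149 and 142 CPM in 2D, 128, 140.1 and 131 CPM at day 7, and 126, 111 and 99.3 CPM at day 14. It fell by 0.42 (SE 0.13, adjusted p = 0.028) at day 14 against 2D, a call lost without 2D replicate 1 (-0.41, adjusted p = 0.0889), 2D replicate 2 (-0.45, adjusted p = 0.073) or day 14 replicate 3 (-0.33, adjusted p = 0.0605), in a fit of the 6 samples alone (adjusted p = 0.0639) and without a filter (-0.47, adjusted p = 0.127). The day 7 value of -0.17 passed with total counts alone (-0.33, adjusted p = 0.0336). Neither gene passed the threshold between the scaffold groups, at -0.31 for SRM and -0.24 for SMS.

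**Figure D2:**
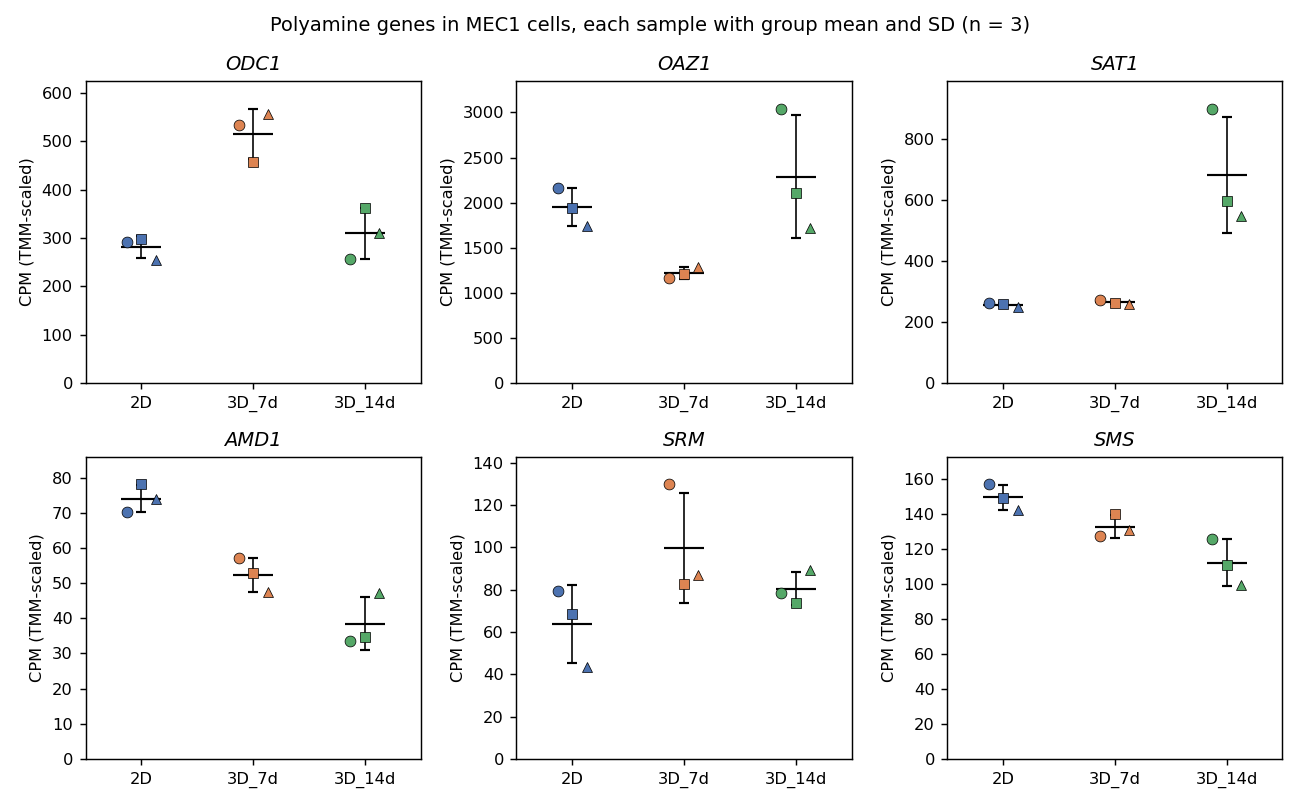
Level of the 6 polyamine genes (CPM on TMM-scaled library sizes, linear axes from 0) in each of the 9 samples; circles, squares and triangles are replicates 1, 2 and 3, and the black line and bars are the group mean and SD (n = 3). ODC1 peaks at day 7 (456 to 556 CPM) where OAZ1 is lowest (1165 to 1288 CPM), and SAT1 is high at day 14 (549 to 899.9 CPM).

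**Figure D3:**
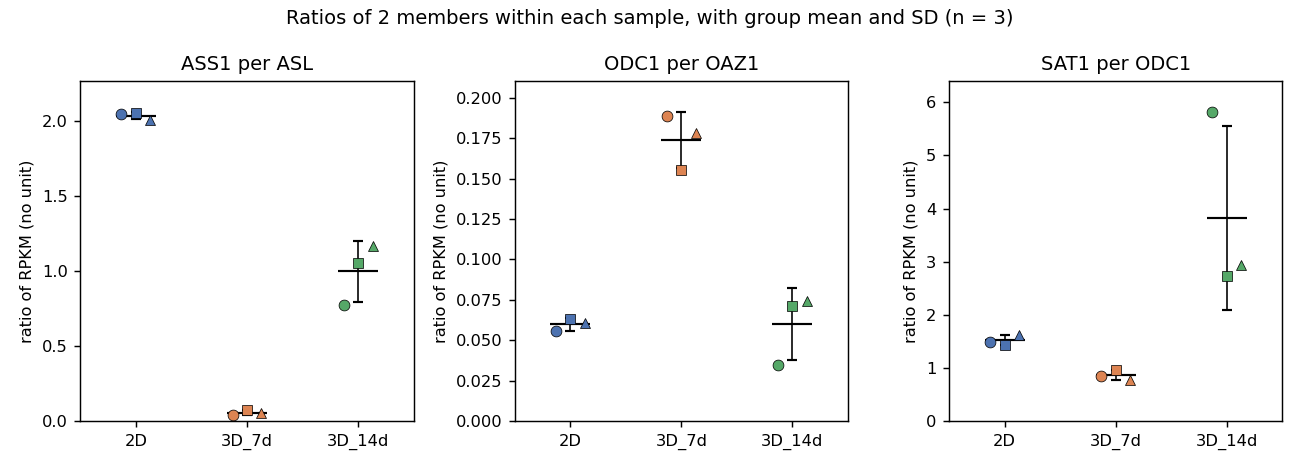
Ratios of RPKM, a level per kilobase of exon, between pairs of genes within each sample (linear axes from 0; symbols as replicates 1, 2 and 3; line and bars, mean and SD, n = 3). ASS1 per ASL is 2.04, 0.0536 and 0.998 in 2D, day 7 and day 14, ODC1 per OAZ1 is highest at day 7 (0.174), and SAT1 per ODC1 is highest at day 14 (3.82).

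Of the 9 genes other than ASS1, which has no test and enters no count here, 2 were called higher and 3 lower at day 7 against 2D. The 3 lower include ARG2, whose day 7 value is given without a test. Over all genes tested, 43.4% were called in this comparison, 22.2% higher and 21.2% lower, and since ASS1 was chosen from it nothing is read from this count. At day 14 against 2D, 1 gene was called higher and 2 lower, beside 36.2% of all genes (19.0% higher, 17.2% lower). From day 7 to day 14, 2 were called higher and 2 lower, beside 28.1% of all genes (14.5% higher, 13.6% lower). With total counts alone, 1 was called higher and 5 lower at day 7 against 2D, and 1 higher and 5 lower at day 14 against 2D. Over all genes that scaling called 2157 higher and 3575 lower at day 7, in place of 2985 and 2853. At day 14 it called 1604 higher and 3246 lower, in place of 2557 and 2318. In fits of 6 samples, 1 was lower at day 14 against 2D and 1 lower between the scaffold groups, and without a filter 1 was lower at day 14 against 2D. The lower calls over all genes in these 3 cases were 2101, 1146 and 2572, in place of 2318, 1834 and 2318. The 2 higher calls at day 7 became 1 without 2D replicate 2, 2D replicate 3, day 7 replicate 1 or day 7 replicate 3, the 2 lower calls at day 14 became 1 without 2D replicate 1, 2D replicate 2 or day 14 replicate 3, and the 2 lower calls between the scaffold groups became 1 without 2D replicate 2, day 7 replicate 2, day 7 replicate 3 or day 14 replicate 1. In the same refits and order, all genes had 2060, 2133, 2566 and 2217 higher calls at day 7, in place of 2985. Their lower calls were 1796, 1667 and 2318 at day 14, in place of 2318, and 1459, 1098, 1092 and 1866 between the scaffold groups, in place of 1834. The median log2 fold change of the 9 genes was -0.17, -0.30 and -0.24, against -0.0039, 0.02 and -0.0012 over all genes tested. All 10 genes passed the filter of more than 1 CPM in at least 3 libraries, ARG2 as described above and the other 9 in all 9 libraries.

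Compared per exon length as RPKM, OAZ1 was the most abundant in all 3 groups, at 1697 ± 183 (SD, n = 3) in 2D, 1064 ± 53.9 at day 7 and 1995 ± 593 at day 14. In 2D it was followed by SAT1 (153), ODC1 (101), SMS (87.8), SRM (50.6), ASS1 (46.0), OAT (29.8), ASL (22.6), AMD1 (21.3) and ARG2 (1.62). The ranges of ODC1 and SMS, of SRM and ASS1, and of ASL and AMD1 overlapped. At day 7 ASS1 was in place 9 at 1.02 ± 0.277, with ARG2 at 0.597 ± 0.165 as the only gene below it and overlapping it. SRM and SMS overlapped there as well. At day 14 ASS1 was in place 8 at 18.2 ± 3.80 RPKM and overlapped ASL at 18.4 ± 2.95, and OAT overlapped ASL. SAT1 reached 405 ± 113 RPKM at day 14 against 111 ± 19.2 for ODC1, whereas at day 7 ODC1 was at 185 ± 18.8 and SAT1 at 158 ± 3.38. SMS and SRM were next at day 14, at 65.8 and 63.9 RPKM, and overlapped. Without day 14 replicate 1, 6 of the 10 genes kept their place in the day 14 order.

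Promoter windows from RefSeq were matched for all 10 genes and searched, on both strands, for CACGTG, the E-box that MYC with MAX can bind. The letters occurred within 250 bases before a start site in 3 of the 10 genes, ASS1, ODC1 and SRM, against 7.73% of 27305 genes with a window. For ASS1 they lie at chr9:130444890-130444895 on the plus strand, before a RefSeq start. For ODC1 they lie at chr2:10448036-10448041 on the minus strand, before the second of its start sites and inside the first intron of longer transcripts. For SRM they lie at chr1:11060212-11060217 on the minus strand. The stretches are shown because these 3 genes carry the letters while ASS1 and ODC1 differed in direction at day 7. They are chr9:130444757-130444928 (plus strand, 172 bases), chr2:10448015-10448120 (minus strand, 106 bases) and chr1:11060021-11060268 (minus strand, 248 bases) of GRCh38.p14, given 5′ to 3′ outside annotated exons with the E-box letters in capitals.
ASS1: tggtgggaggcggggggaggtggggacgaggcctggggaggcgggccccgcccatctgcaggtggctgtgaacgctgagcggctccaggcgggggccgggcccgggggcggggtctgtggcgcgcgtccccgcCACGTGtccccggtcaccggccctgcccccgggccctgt
ODC1: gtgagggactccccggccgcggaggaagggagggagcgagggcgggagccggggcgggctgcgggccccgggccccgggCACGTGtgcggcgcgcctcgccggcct
SRM: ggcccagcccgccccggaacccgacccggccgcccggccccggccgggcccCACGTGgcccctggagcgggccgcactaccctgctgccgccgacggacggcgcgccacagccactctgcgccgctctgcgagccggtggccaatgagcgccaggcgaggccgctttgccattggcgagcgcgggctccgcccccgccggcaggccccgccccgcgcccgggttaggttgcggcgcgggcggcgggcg
A match of letters is a description and not a binding site. The pattern TGATGNAA, a core of the amino acid response element that ATF4 can bind, occurred in 0 of the 10 genes and in 3.89% of all genes with a window, which says only that these letters are not in these windows.

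MYC itself, the transcription factor known to activate ODC1, fell by 2.30 on the log2 scale (SE 0.21, adjusted p = 8.69e-06) at day 7 and by 2.09 (SE 0.20, adjusted p = 2.1e-05) at day 14 against 2D. Its level was 459 ± 30.6 CPM (SD, n = 3) in 2D, 93.0 ± 16.7 CPM at day 7 and 108 ± 27.7 CPM at day 14. At day 7, where MYC was low, ASS1 was low and ODC1 was high. Whether MYC had a part in the level of either gene was not tested. The difference in MYC between the scaffold groups was 0.21 (adjusted p = 0.439) and passed only without day 14 replicate 1 (0.43, adjusted p = 0.0462). MAX did not pass in any comparison, with 0.27 (adjusted p = 0.166) at day 7 against 2D, which passed in a fit of the 6 samples alone (adjusted p = 0.0277), and 0.40 (adjusted p = 0.0532) at day 14 against 2D, which passed without day 14 replicate 1 (0.54, adjusted p = 0.00284) and by DESeq2 (adjusted p = 0.0376).

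ATF4, the activator of the amino acid response, held 618 ± 5.11 CPM (SD, n = 3) in 2D, 201 ± 8.25 CPM at day 7 and 552 ± 78.2 CPM at day 14. It fell by 1.62 (SE 0.14, adjusted p = 7.23e-06) at day 7 and rose by 1.46 (SE 0.14, adjusted p = 8.68e-05) from day 7 to day 14. Its day 14 difference from 2D was -0.16 (adjusted p = 0.375), or -0.38 (adjusted p = 0.02) with total counts alone. CHAC1, a glutathione-degrading enzyme of the same response, fell from 65.9 ± 1.47 CPM to 2.90 ± 0.443 CPM at day 7 (-4.51, SE 0.22, adjusted p = 1.24e-07) and stood at 41.8 ± 10.9 CPM at day 14 (-0.66, SE 0.19, adjusted p = 0.0174). DDIT3, a stress transcription factor, fell by 1.90 (adjusted p = 7.56e-06) at day 7 and by 0.55 (adjusted p = 0.0179) at day 14; the latter call was lost without 2D replicate 3 (adjusted p = 0.0558). CEBPB had 7.97 ± 3.46 CPM in 2D and 0.788 ± 0.154 CPM at day 7, exceeding 1 CPM in 3 of 3 libraries of 2D and of day 14 and 0 of 3 at day 7. It entered the fit through the groups where it was high, so its value of -3.33 at day 7 is given without a test. TRIB3 fell by 1.49 (adjusted p = 5.74e-05) at day 7 and by 0.92 (adjusted p = 0.00173) at day 14. ASNS, at 1.65 CPM in 2D, exceeded 1 CPM in 3 of 3 libraries there, 0 of 3 at day 7 and 1 of 3 at day 14. It likewise entered through its high group, and its values of -3.03 at day 7 and -1.26 at day 14 are given without a test. It also shares 82.4% of its exonic bases with AC079781.5. NFE2L2 fell by 0.79 (adjusted p = 0.00095) and 0.70 (adjusted p = 0.00276) at day 7 and day 14, and HIF1A did not pass.

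**Figure D4:**
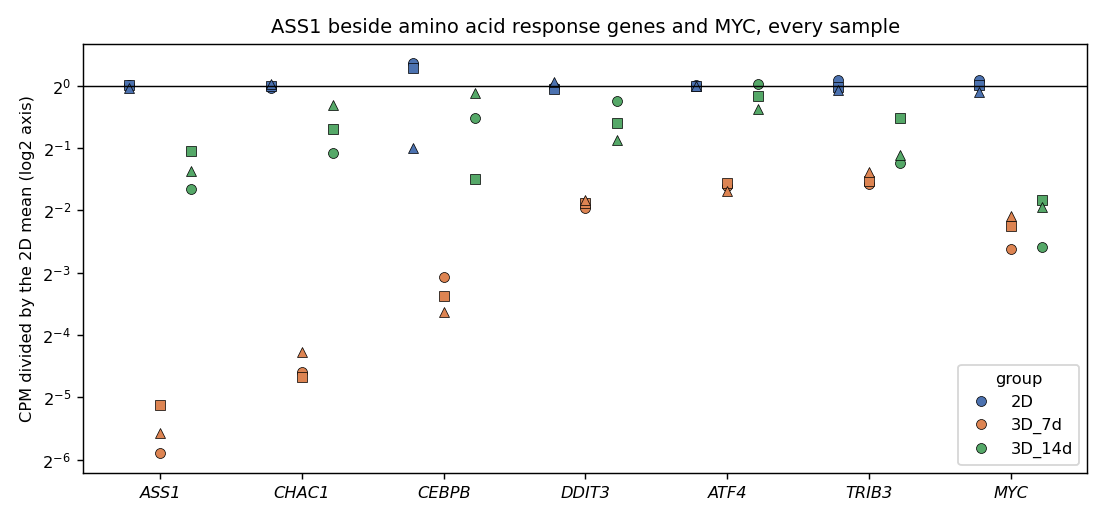
CPM of ASS1, 5 amino acid response genes and MYC in each sample divided by the 2D mean of the gene (log2 axis; blue 2D, orange 3D_7d, green 3D_14d; circles, squares and triangles are replicates 1, 2 and 3; the line marks the 2D mean). ASS1 and CHAC1 are lowest at day 7 (means of 2.10 and 2.90 CPM) and higher at day 14 (37.6 and 41.8 CPM), whereas MYC is low in both scaffold groups (93.0 and 108 CPM).

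Over the log2 CPM of the 9 samples, the genes whose levels followed ASS1 most closely were PPM1N (Pearson's r = 0.992), CST7 (0.990), CLK1 (0.988), CHAC1 (0.987) and CBX7 (0.986). PPM1N exceeded 1 CPM in 3 of 3 libraries of 2D and of day 14 and 0 of 3 at day 7. It entered this ranking through the groups where it was high, so nothing is read from its place. For SAT1 they were CHIC2 (Pearson's r = 0.993), CD63 (0.986), MAPKAPK2 (0.985), LINC02227 (0.983) and HLA-G (0.983). Ranked by Spearman's rho instead, 0 of the 5 genes of either list stayed in it. These values describe 9 samples in 3 groups, in which any gene with the same group means scores high.

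Beyond the 10 genes, 62 further genes of the pathway were listed by function, of which 45 passed the filter. At day 7 against 2D, 16 of the 45 were called higher and 9 lower, beside 22.2% and 21.2% of all genes tested. At day 14 against 2D they were 10 higher and 9 lower, beside 19.0% and 17.2%, and from day 7 to day 14 5 higher and 14 lower, beside 14.5% and 13.6%. The same shares of all genes stand beside the counts of each list below. The medians were 0.25, -0.13 and -0.26 on the log2 scale, and those of all genes are given above. With total counts alone the day 14 comparison with 2D gave 4 higher and 16 lower; that scaling moved the median of all genes by -0.16 at day 7 and -0.21 at day 14. The share of calls that were higher, over all genes, was 37.6% in place of 51.1% at day 7, and 33.1% in place of 52.5% at day 14. Without 2D replicate 1, 2D replicate 2 or 2D replicate 3, the 10 higher calls at day 14 became 5, 4 and 4, and the 5 higher calls between the scaffold groups became 3 without day 7 replicate 2. Over all genes the higher calls at day 14 became 1767, 1599 and 1564, in place of 2557. Between the scaffold groups they became 1193 without day 7 replicate 2, in place of 1951. Where a pathway list had no call in a direction by edgeR, it had 0 at an unadjusted p under 0.05 and 0 by DESeq2 as well, except that AZIN1 was lower from day 7 to day 14 at an unadjusted p under 0.05.

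The remaining urea cycle list, which holds the mitochondrial enzymes and the aspartate and ornithine carriers, had 7 of 11 genes above the filter. CPS1, OTC and ARG1, the liver enzymes of the cycle, were under it, each at a group mean of at most 0.0914 CPM. Of the 7, 5 were called higher and none lower at day 7 against 2D (22.2% and 21.2% of all genes), 1 higher and none lower at day 14 (19.0% and 17.2%), and none higher and 4 lower from day 7 to day 14 (14.5% and 13.6%). SLC25A15, the ornithine carrier, rose by 0.80 (SE 0.20, adjusted p = 0.00695) at day 7 and fell by 1.22 (SE 0.21, adjusted p = 0.00143) from day 7 to day 14. The day 7 call was lost without 2D replicate 1 (0.68, adjusted p = 0.0527) or day 7 replicate 2 (0.60, adjusted p = 0.0558). NAGS, which makes the activator of CPS1, was higher by 1.14 (SE 0.35, adjusted p = 0.0231) at day 14 against 2D. That call was lost without 2D replicate 2 (1.06, adjusted p = 0.0875), 2D replicate 3 (0.99, adjusted p = 0.099) or day 14 replicate 2 (0.72, adjusted p = 0.106), and with total counts alone (0.94, adjusted p = 0.0557).

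Among arginine carriers and sensors, 8 of 11 genes were tested, with 2 called higher and 3 lower at day 7, 3 and 3 at day 14, and 3 and 3 between the scaffold groups. SLC7A1, the main importer of cationic amino acids, had 67.0 ± 5.44 CPM (SD, n = 3) in 2D and fell to 28.4 ± 1.13 CPM at day 7 (-1.24, SE 0.18, adjusted p = 0.000234) and 33.6 ± 9.16 CPM at day 14 (-0.99, SE 0.18, adjusted p = 0.00128). SLC3A2, the heavy chain of several amino acid exchangers, fell by 1.26 (adjusted p = 7.08e-05) and 0.81 (adjusted p = 0.0017), and SLC25A29, a mitochondrial basic amino acid carrier, by 1.34 (adjusted p = 2.66e-05) and 1.43 (adjusted p = 2.6e-05). SLC38A9, the lysosomal arginine sensor, rose by 1.44 (adjusted p = 4.42e-05) at day 7 and 0.82 (adjusted p = 0.00244) at day 14. RARS, the arginyl-tRNA synthetase, rose by 1.19 (adjusted p = 8.1e-05) at day 7, and its day 14 value was 0.35 (adjusted p = 0.0824). CASTOR1, a cytosolic arginine sensor that shares 72.6% of its exonic bases with AC004997.1, rose by 1.40 (SE 0.33, adjusted p = 0.00581) at day 14, from a 2D mean of 1.21 CPM.

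Of the other routes that use arginine, 6 of 10 genes were tested, and the nitric oxide synthases NOS1, NOS2 and NOS3 were under the filter. At day 7, 1 was called higher and 2 lower, at day 14 none higher and 3 lower, and between the scaffold groups 1 higher and 2 lower. GAMT, the second enzyme of creatine synthesis, had 20.1 ± 2.10 CPM (SD, n = 3) in 2D and fell to 4.47 ± 1.55 CPM at day 7 (-2.16, SE 0.27, adjusted p = 6.43e-05) and 6.37 ± 1.42 CPM at day 14 (-1.66, SE 0.26, adjusted p = 0.000471). Its value of 0.51 between the scaffold groups passed only without day 7 replicate 1 (0.83, adjusted p = 0.0334). DDAH2 fell by 1.75 (SE 0.31, adjusted p = 0.000754) at day 7 and had -0.23 (adjusted p = 0.572) at day 14. AGMAT had -0.25 (adjusted p = 0.561) at day 7 and -1.70 (SE 0.34) at day 14 against 2D. It exceeded 1 CPM in 3 of 3 libraries of 2D and of day 7 and in 2 of 3 at day 14. AGMAT passed the filter through groups where it was high, so its day 14 value is given without a test. The lower counts at day 14 and between the scaffold groups include AGMAT.

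Among genes between ornithine, glutamate and proline, 7 of 8 were tested and PRODH was listed at 0 in all 9 libraries. At day 7, 3 were called higher and 1 lower, at day 14 2 and 1, and between the scaffold groups none higher and 3 lower. PYCR1, a mitochondrial enzyme of the last step to proline, had 357 ± 30.1 CPM (SD, n = 3) in 2D and fell to 143 ± 16.3 CPM at day 7 (-1.31, SE 0.15, adjusted p = 4.61e-05) and 142 ± 21.0 CPM at day 14 (-1.33, SE 0.15, adjusted p = 6.16e-05). PYCR3, which performs that step in the cytosol, rose by 1.17 (SE 0.21, adjusted p = 0.000768) at day 7, and ALDH18A1, the entry from glutamate, by 0.88 (SE 0.19, adjusted p = 0.00285). ALDH4A1, of proline breakdown, rose by 1.36 (SE 0.18, adjusted p = 0.000105) at day 7 and by 0.61 (SE 0.18, adjusted p = 0.0172) at day 14. The day 14 call was lost without 2D replicate 1 (0.59, adjusted p = 0.0603), 2D replicate 2 (0.53, adjusted p = 0.0937) or 2D replicate 3 (0.61, adjusted p = 0.0599), with total counts alone (0.40, adjusted p = 0.081), and without a filter (0.56, adjusted p = 0.0536).

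The remaining polyamine genes had 7 of 10 above the filter, with 1 called higher and 2 lower at day 7, 1 and none at day 14, and 1 and none between the scaffold groups. SAT2, a relative of SAT1, fell by 1.22 (SE 0.20, adjusted p = 0.000415) at day 7 and rose by 0.86 (SE 0.20, adjusted p = 0.00706) from day 7 to day 14. Its day 14 difference from 2D of -0.35 passed without day 14 replicate 1 (-0.59, adjusted p = 0.00887) and with total counts alone (-0.57, adjusted p = 0.0295). For hypusine, the spermidine-derived residue of EIF5A, 2 of 4 genes were tested, and 1 was called higher at day 7 and at day 14 and none lower. The row of DHPS, under the filter, shares 82.3% of its exonic bases with other genes. All 8 methionine cycle and salvage genes were tested, with 3 called higher and 1 lower at day 7, 2 and 2 at day 14, and none higher and 2 lower between the scaffold groups. MTAP, which recycles the by-product of spermidine and spermine synthesis, fell by 0.82 (SE 0.19, adjusted p = 0.0041) at day 7 and 1.22 (SE 0.19, adjusted p = 0.000477) at day 14. AHCY had 0.25 (adjusted p = 0.198) at day 7, passed there only in a fit of the 6 samples (adjusted p = 0.0489), and fell by 0.88 (SE 0.15, adjusted p = 0.00093) at day 14.

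**Figure D5:**
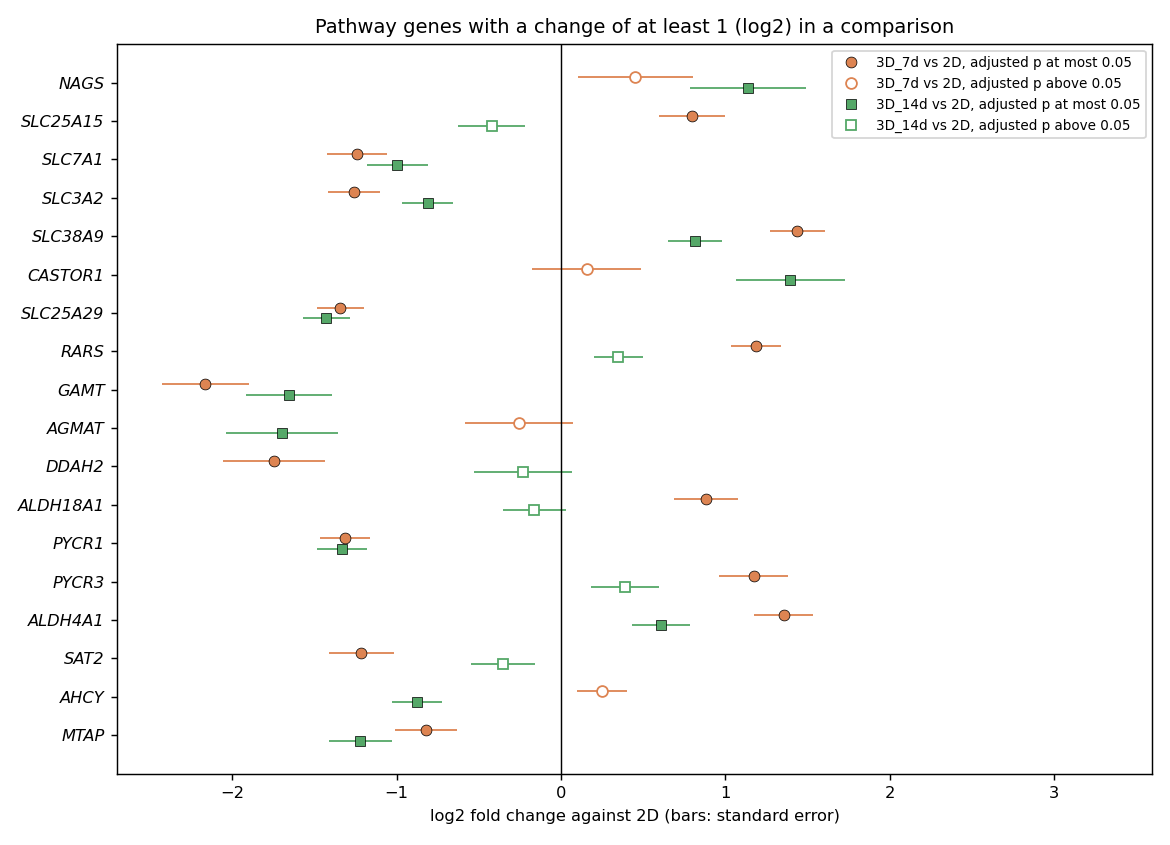
Log2 fold changes against 2D, with standard errors as bars, of the 18 pathway genes with an absolute value of at least 1 and an adjusted p of at most 0.05 in a comparison (orange circles 3D_7d, green squares 3D_14d; filled symbols passed the threshold, open ones did not). GAMT is the lowest at day 7 (-2.16), SLC38A9 the highest (1.44), and PYCR1 and SLC25A29 lie at similar values at both times. For AGMAT at day 14 the text gives no test.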

How the data were processed

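The RNA of 9 MEC1 samples was sequenced as single reads from a low-input SMART-Seq library. The authors trimmed the reads with Trimmomatic (version 0.39), aligned them to GRCh38 with STAR (version 2.5.3a) and deposited raw counts per gene symbol from featureCounts (version 1.6.4), without normalization. The deposited Length column, in bases of exon, served for RPKM. The strand setting and the treatment of reads with several matches are not given in the sources used here.

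Samples were grouped by culture form and day. In R (version 4.3.3), edgeR (version 4.0.16) was used for TMM factors and the two-sided quasi-likelihood test in 1 model of all 9 samples. Of 51726 symbols with counts, 13463 had a CPM above 1 in at least 3 samples and were tested. P-values were adjusted by Benjamini-Hochberg over all genes of a comparison, and the threshold was 0.05. Log2 CPM values used a prior count of 2. The standard error was the absolute log2 fold change divided by the square root of F. Replicates differed by more than sampling noise in each group, and depth is given with the results.

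The members and gene lists were chosen with earlier results of these data known. The genes named were the 10 members; pathway genes past the threshold whose log2 fold change was 1 or more in size in a comparison; 11 regulators, of which 1 is not reported here; pseudogenes of the members; and the 5 genes most correlated with ASS1 and with SAT1. Counts of members called leave out ASS1. CEBPB, ASNS, ARG2 at day 7 and AGMAT at day 14 are given without a test, a choice made after their values were seen. The counts of calls still take in ARG2 and AGMAT. RARS1 was matched as RARS through RefSeq synonyms. Promoter windows came from RefSeq on GRCh38.p14.

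Alternatives were DESeq2 size factors and its Wald test (version 1.42.0), total counts alone, TMM without immunoglobulin, ribosomal protein and mitochondrial genes, filterByExpr, no filter, the 6 samples of a comparison, the replicate number as a block, a minimum size of 1 for the log2 fold change, Spearman's rho for likeness, and leaving out each sample. The test was checked on simulated counts with known changes.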

Additional observations from a re-analysis of the deposited data

Results flagged for a closer look

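For the genes below other than CEBPB, ASNS and AGMAT, the scaffold groups differed from each other by the edgeR comparison of day 14 with day 7. The 2D level is common to both time points, so this is also the change in the difference from 2D. Values are log2 differences, day 14 minus day 7. Among the 10 genes of the report they were -0.55 for OAT (a call lost in refits given in the report), -0.74 for ODC1, 0.91 for OAZ1 and 1.36 for SAT1.

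In the regulator list day 14 was above day 7 for CHAC1 (3.85), ATF4 (1.46), DDIT3 (1.35) and TRIB3 (0.57). For CEBPB the value was 2.74 and for ASNS 1.76, but both genes had 0 of 3 libraries above 1 CPM at day 7 and passed the filter through groups where they were high, so they are given without a test and nothing is read from them. The TRIB3 call was lost without day 7 replicate 1 (0.52), day 7 replicate 2 (0.56) or day 14 replicate 2 (0.32), with filterByExpr (adjusted p = 0.0531), without a filter (adjusted p = 0.0819) and in a fit of the 6 samples alone (adjusted p = 0.0767).

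Among other pathway genes the difference was above 0 for DDAH2 (1.52), CASTOR1 (1.24), SAT2 (0.86) and SLC3A2 (0.45), and below 0 for AGMAT (-1.44), SLC25A15 (-1.22), AHCY (-1.13), ALDH18A1 (-1.04), RARS (-0.84), PYCR3 (-0.78), ALDH4A1 (-0.75) and SLC38A9 (-0.62). The AGMAT value is given without a test, since AGMAT exceeded 1 CPM in only 2 of 3 libraries at day 14. The SLC3A2 call was lost without 2D replicate 1, 2 or 3 (0.46 each), day 7 replicate 1 (0.36), day 7 replicate 2 (0.47), day 7 replicate 3 (0.55) or day 14 replicate 2 (0.30). It was also lost with total counts alone (0.40), filterByExpr (adjusted p = 0.0857), no filter (adjusted p = 0.306), the 6 samples alone (adjusted p = 0.118) and the replicate block (adjusted p = 0.0523), 12 of 17 refits in all. Calls were also lost for CASTOR1 without day 7 replicate 2 (1.16) or without a filter (adjusted p = 0.094), for SLC38A9 without day 7 replicate 3 (-0.57), without a filter (adjusted p = 0.0505) or with the 6 samples alone (adjusted p = 0.051), for ALDH4A1 without day 7 replicate 3 (-0.57), and for PYCR3 without day 7 replicate 1 (-0.72) or day 14 replicate 3 (-0.67).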

How the results depend on the processing

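Across 17 refits, 2397 values of single genes were recomputed: 2275 kept their direction and side of the threshold, 63 lost a call, 24 gained one and 35 changed sign, none of the latter called in either fit. These counts take in ASNS, CEBPB, ARG2 at day 7 and AGMAT at day 14, for which the report gives no test. The cause was not tested. The log2 fold change of ASS1 without single libraries ran from -5.76 to -5.35 at day 7, -1.50 to -1.20 at day 14 and 3.99 to 4.40 between the scaffold groups.

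Member counts are over the 9 genes other than ASS1. Those called lower at day 7 include ARG2, which has no test there in the report. With total counts alone, members were 1 higher and 5 lower at day 7 and 5 lower at day 14, and pathway genes at day 14 were 4 higher and 16 lower. Over all genes that scaling gave 2157 higher and 3575 lower at day 7 (37.6% of calls higher, in place of 51.1%). At day 14 it gave 1604 higher and 3246 lower (33.1% of calls higher, in place of 52.5%). Without a filter, members called lower at day 14 were 1, and pathway genes called higher were 5 at day 14 and 3 between the scaffold groups. Over all genes, 2107 were then called higher at day 14 and 1733 between the scaffold groups, in place of 2557 and 1951. In fits of 6 samples, members called lower were 1 at day 14 and 1 between the scaffold groups. With a required log2 fold change of 1 or more in size, members were 0 higher and 1 lower at day 7, 0 lower at day 14, and 1 higher and 0 lower between the scaffold groups, and pathway genes were 4 higher at day 7, 2 higher and 5 lower at day 14, and 2 higher and 4 lower between the scaffold groups. Leaving out single libraries gave 1 to 2 members higher and 2 to 3 lower at day 7, 1 to 3 lower at day 14, 1 to 3 lower between the scaffold groups, 4 to 11 pathway genes higher at day 14 and 3 to 6 between the scaffold groups, and 6 to 10 genes in the same place of the day 14 order.

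Signs turned with total counts alone for ODC1 at day 14 (-0.0604) and at day 7 for SAT1 (-0.115), CHIC2 (-0.150), MAPKAPK2 (-0.103), LINC02227 (-0.0222) and HLA-G (-0.0553). CHIC2 at day 7 also turned with DESeq2 size factors (-0.00558), TMM without 3 gene groups (-0.0327) and the Wald test (-0.00557). Without single libraries the values that turned ran, at day 7, from -0.0307 to 0.0406 for SAT1, -0.0509 to 0.00646 for CHIC2, -0.132 to 0.0417 for CD63 and -0.0539 to 0.0834 for MAPKAPK2. At day 14 they ran from -0.0218 to 0.405 for OAZ1, -0.557 to 0.0469 for DDAH2, -0.382 to 0.0465 for ALDH18A1 and -0.467 to 0.0187 for HIF1A. Between the scaffold groups they ran from -0.170 to 0.0582 for ASL, -0.167 to 0.00735 for SLC25A29, -0.145 to 0.0649 for PYCR1 and -0.435 to 0.0635 for HIF1A.

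The labels do not say that replicate numbers pair the samples. Deviations of same-numbered samples correlated from -0.100 to 0.185, and those of different-numbered samples from -0.135 to 0.0807. Between 2D and day 14 the same-numbered values, 0.0931 to 0.185, lay above the different-numbered ones, -0.135 to 0.0399. In the pairs with day 7 the same-numbered values were all negative, from -0.100 to -0.00522. With the replicate number as a block, members were 2 higher and 3 lower, 1 higher and 2 lower, and 2 higher and 2 lower in the 3 comparisons, and pathway genes 16 and 9, 9 and 9, and 4 and 15. Under the block SLC3A2 between the scaffold groups lost its call (adjusted p = 0.0523), CD63 at day 7 turned to 0.00786, and ASS1 was -5.53, -1.37 and 4.17.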
